A study of Mus musculus with 27 samples.

Results

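Acetylation of lysine 27 of histone H3 (H3K27ac) and of lysine 9 of the same histone (H3K9ac) was compared in primary hepatocytes of wild-type mice kept in normoxic culture, the resting state of the study. Each mark was read by 1 CUT&RUN library. In CUT&RUN an antibody tethers a nuclease to chromatin, and the DNA released around its target is sequenced. The H3K27ac library held 5655 peaks and the H3K9ac library 6513, together 12168 of the 54935 peaks in the 8 deposited peak lists. The study is about ATP citrate lyase (ACLY), a cytosolic and nuclear source of acetyl-CoA, in liver injury by ischemia and reperfusion, and holds 27 samples, of which 11 are CUT&RUN and 16 are RNA-seq. Culture of the WT hepatocytes under normoxia or under hypoxia-reperfusion (HR) began 24 hours after their isolation. The labels give no age, sex or number of mice, nor whether cells of several mice were pooled. WT HR lists of the same antibodies, with 8252 H3K27ac and 7593 H3K9ac peaks, are set beside the normoxic ones where named. IgG controls were not analysed here.

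H3K27ac is placed mainly by the acetyltransferases p300 and CBP and is found at active promoters and active enhancers. H3K9ac is placed largely by GCN5 and PCAF and is found mostly at the promoters of active genes. In hepatocytes both are known from genes for plasma proteins, metabolic enzymes and the transcription factors that maintain the cell's identity. Acetyl-CoA is the donor of the acetyl group for both.

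With 1 library per mark no test over samples was possible, so every difference between the marks is a difference between 2 libraries. Intervals are 95% Wilson intervals over peaks or genes and cover counting error only. The sequencing depth is unknown from the files, and the smallest total signal kept was 60120 in the H3K27ac list and 37770 in the H3K9ac list, on the authors' scale. Signal was therefore used only within a list and not compared between lists. Unless stated otherwise, it is given as a percentile, on which 100 is the peak with the largest total signal.

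Promoters of 6 genes show the kinds of gene that carried both marks or 1 of them, which the results below describe across all coding genes. Each runs from 150 bases before the start of transcription through the first 20 transcribed bases, 5′ to 3′ on the gene's strand, from RefSeq (GRCm38.p6, the assembly of mm10). Capitals mark CG dinucleotides and, in G6pc, the letters TATAAA. Alb, the gene of serum albumin, carried both marks at its ends. Its promoter lies at chr5:90460720-90460889 (plus strand) and has 3 CG dinucleotides in the printed bases.
Alb: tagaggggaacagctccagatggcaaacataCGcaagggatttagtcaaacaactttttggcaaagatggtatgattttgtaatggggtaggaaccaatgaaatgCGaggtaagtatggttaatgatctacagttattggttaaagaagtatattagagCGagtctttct
Fbp1 and G6pc encode fructose-1,6-bisphosphatase and glucose-6-phosphatase, enzymes of glucose synthesis in the liver, and carried H3K27ac only. The Fbp1 promoter lies at chr13:62888263-62888432 (minus strand) with 5 CG dinucleotides. The G6pc promoter lies at chr11:101367566-101367735 (plus strand) with 0, and its TATAAA begins at position -29, counted from the start of transcription.
Fbp1: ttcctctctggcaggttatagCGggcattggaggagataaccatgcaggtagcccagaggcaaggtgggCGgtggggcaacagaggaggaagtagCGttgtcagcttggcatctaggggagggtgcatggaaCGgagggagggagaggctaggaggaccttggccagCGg
G6pc: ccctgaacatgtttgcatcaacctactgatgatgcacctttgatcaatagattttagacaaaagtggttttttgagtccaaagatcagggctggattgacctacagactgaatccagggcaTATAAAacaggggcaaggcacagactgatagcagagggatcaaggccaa
Ndufs3, a subunit of complex I of the respiratory chain, and Apex1, an endonuclease of base excision repair, carried H3K9ac only. Their promoters lie at chr2:90904702-90904871 (minus strand) and chr14:50924799-50924968 (plus strand) and have 13 and 16 CG dinucleotides.
Ndufs3: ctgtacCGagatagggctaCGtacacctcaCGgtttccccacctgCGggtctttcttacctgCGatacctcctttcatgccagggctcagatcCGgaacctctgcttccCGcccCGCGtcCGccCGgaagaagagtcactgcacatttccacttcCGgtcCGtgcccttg
Apex1: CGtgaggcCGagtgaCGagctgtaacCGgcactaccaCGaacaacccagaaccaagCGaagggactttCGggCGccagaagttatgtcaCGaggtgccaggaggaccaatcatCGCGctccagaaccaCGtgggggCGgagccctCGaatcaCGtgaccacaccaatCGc
Rps3, a protein of the small ribosomal subunit, carried both marks. Its promoter lies at chr7:99483690-99483859 (minus strand) and has 11 CG dinucleotides.
Rps3: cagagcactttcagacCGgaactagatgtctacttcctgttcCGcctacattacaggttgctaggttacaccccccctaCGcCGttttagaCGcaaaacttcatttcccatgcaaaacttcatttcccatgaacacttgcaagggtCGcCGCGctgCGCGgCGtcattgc
In these 6 stretches the 3 liver genes had 0 to 5 CG dinucleotides and the other 3 had 11 to 16. The genes were picked as examples after their values were seen, and some other promoters read in the same way fell between. Fen1 (H3K9ac only) and Rpl4 (both marks) had 6 CG dinucleotides each and lay between these ranges. Tat (H3K27ac only) had 2 and Atr had 14. Atr is counted as H3K9ac only because of a peak at its far end, and its listed starts had neither mark.

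Most peaks of either list overlapped the other mark by at least 1 bp. Of the H3K27ac peaks, 3925 (69.4%, 68.2 to 70.6) had both marks and 1730 had H3K27ac alone. Of the H3K9ac peaks, 4281 (65.7%, 64.6 to 66.9) had both marks and 2232 had H3K9ac alone. The H3K27ac peaks covered 81.5 Mb and the H3K9ac peaks 61.1 Mb, and the 40.4 Mb in common was 49.6% of the H3K27ac bases and 66.2% of the H3K9ac bases. Several H3K9ac peaks could share 1 H3K27ac peak: 266 H3K27ac peaks overlapped 2 H3K9ac peaks, 47 overlapped 3 and 7 overlapped 4, whereas 25 H3K9ac peaks overlapped 2 H3K27ac peaks.

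The share with both marks rose with rank in each list. With each list cut into 10 equal groups by total signal, 44.4% of H3K27ac peaks (40.4 to 48.6) and 34.6% of H3K9ac peaks (31.1 to 38.4) in the lowest group had both marks. In the highest group 99.3% of H3K27ac peaks and 98.8% of H3K9ac peaks did. Peaks with 1 mark thus ranked lower by total signal. The median percentile was 28.7 for H3K27ac peaks and 28.5 for H3K9ac peaks with 1 mark, and 62.8 and 64.4 for those with both. By maximum signal it was 34.4 with 1 mark and 56.5 with both for H3K27ac. For H3K9ac it was 48.2 and 51.2, so these peaks differed little in height. Width rose with total signal, from a median of 6630 bp in the lowest H3K27ac group to 36900 bp in the highest. For H3K9ac it rose from 5380 to 18330 bp. How far the detection limit of the other list sets these classes was not tested.

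**Figure D1:**
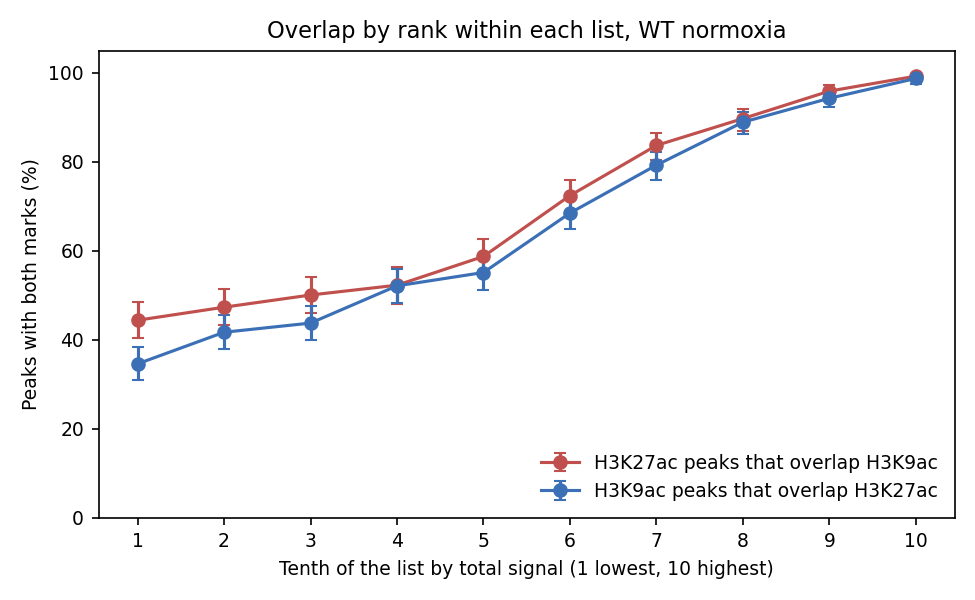
Share of peaks with both marks (y axis, %) in 10 equal groups by total signal within each list (x axis, 1 lowest), WT normoxia, H3K27ac in red and H3K9ac in blue. Bars are 95% Wilson intervals over peaks of 1 library; the share climbs to 99.3% of H3K27ac and 98.8% of H3K9ac peaks in the highest group.

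H3K27ac lay in wider domains. Its median peak was 10340 bp wide (quartiles 6860 and 16710), against 7790 bp for H3K9ac (5780 and 10910). There were 155 H3K27ac peaks of at least 50 kb and 14 such H3K9ac peaks. Among the 3559 places where 1 peak of each list overlapped 1 of the other, the H3K27ac peak was wider in 2510 (70.5%, 69.0 to 72.0), with a median ratio of widths, H3K27ac over H3K9ac, of 1.20 (quartiles 0.963 and 1.75). The points of maximum signal in these pairs lay a median of 240 bp apart, and 62.2% lay within 500 bp. The pair therefore peaked close together while H3K27ac reached farther out. Peaks with 1 mark were narrower, with a median of 8195 bp for H3K27ac and 6400 bp for H3K9ac.

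The widest domains of both lists lay at some of the same loci. The H3K27ac peak of largest total signal and greatest width (182960 bp, chr9:48654731-48837690, mm10) lay over part of Zbtb16, which encodes the zinc-finger repressor PLZF, and had 25.2 times the list's median total signal. The first-ranked H3K9ac peak was at the same locus (121760 bp, chr9:48716291-48838050) with 17.7 times its list's median. Zmiz1, which encodes a transcriptional coregulator, and Mtss1, which encodes an actin-binding protein, were also among the first 5 of both lists. Their H3K27ac peaks were 87560 and 118820 bp wide and their H3K9ac peaks 105060 and 112160 bp. A domain outside coding genes (chr6:31055941-31224210 for H3K27ac and chr6:31057231-31163400 for H3K9ac) was among the first 5 of both lists too. The first 5 differed in 1 locus: H3K27ac had the Vmp1, Ptrh2 and Cltc region, where 4 H3K9ac peaks overlapped a single H3K27ac peak of 123160 bp, and H3K9ac had Shb, where an H3K27ac peak at percentile 99.9 lay. At Zbtb20, a zinc-finger repressor gene active in liver, the H3K27ac peak was 151990 bp wide and overlapped 2 H3K9ac peaks, the higher of them at percentile 86.7.

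The marks also differed in where their peaks lay. A peak was placed within 1 kb of an end of a RefSeq coding gene, else inside a coding gene, else outside. Of the H3K27ac peaks 54.6% (53.3 to 55.9) lay at gene ends, 30.1% inside and 15.3% outside. Of the H3K9ac peaks 75.2% (74.1 to 76.2) lay at gene ends, 17.7% inside and 7.09% outside. The narrower list was thus the one that met gene ends more often. When only the region of maximum signal was placed, a choice made after the peaks were seen, 31.7% of H3K27ac peaks and 60.5% of H3K9ac peaks lay at gene ends.

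Peaks with 1 mark drew these places further apart. Of the peaks with H3K27ac alone 299 (17.3%, 15.6 to 19.1) lay at gene ends, 948 (54.8%) inside genes and 483 (27.9%) outside. Of the peaks with H3K9ac alone 2049 (91.8%, 90.6 to 92.9) lay at gene ends, 148 (6.63%) inside and 35 (1.57%) outside. Read the other way, 90.3% of H3K27ac peaks at gene ends also had H3K9ac, against 44.3% of those inside genes and 44.2% of those outside. For H3K9ac the order was reversed: 58.2% of its peaks at gene ends, 87.2% inside and 92.4% outside also had H3K27ac. H3K9ac away from gene ends was therefore nearly always with H3K27ac, whereas H3K27ac away from gene ends was more often alone. H3K27ac peaks outside genes were a median of 32.4 kb from the nearest coding gene when alone and 30.1 kb when H3K9ac was present.

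**Figure D2:**
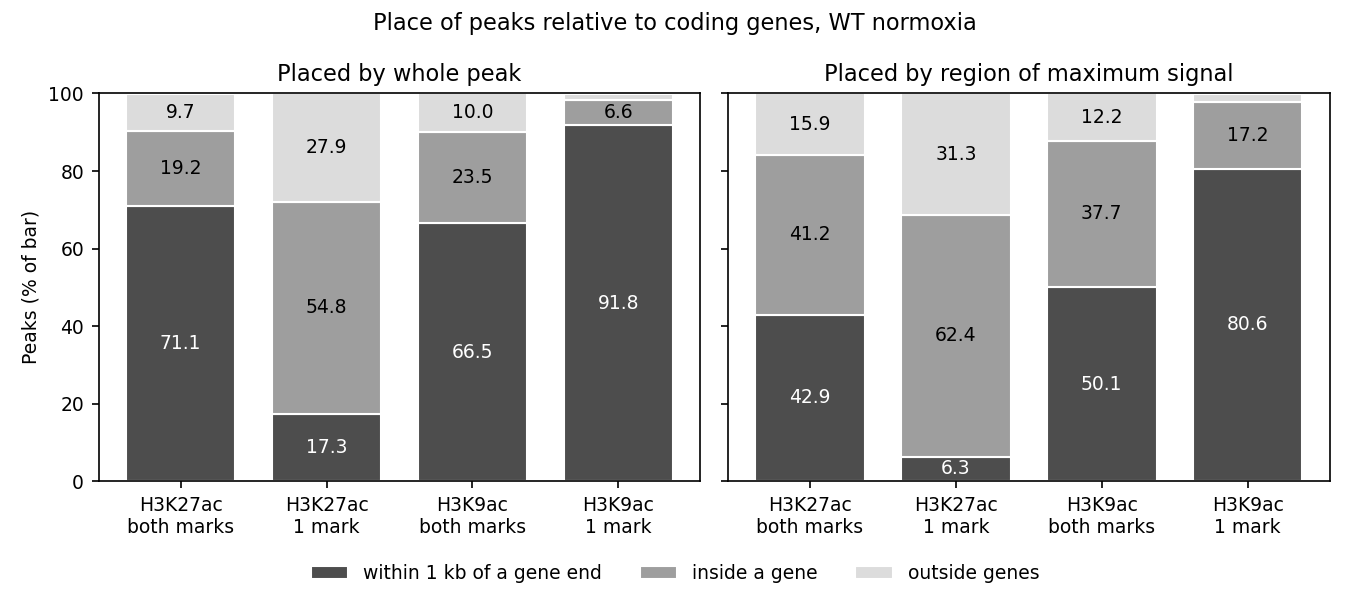
Share of peaks (y axis, %) within 1 kb of a coding gene's end, inside or outside coding genes, for H3K27ac and H3K9ac peaks with both marks or 1 mark, WT normoxia, placed by the whole peak (left) or its region of maximum signal (right). Of peaks with H3K27ac alone 17.3% lay at gene ends by the whole peak, and of peaks with H3K9ac alone 91.8%.

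Most H3K9ac peaks had their maximum within 5 kb of a start of transcription, and most of these maxima lay downstream of the start. The maximum lay within 5 kb of a listed start in 40.2% of H3K27ac peaks (38.9 to 41.5) and 65.8% of H3K9ac peaks (64.6 to 66.9), and within 500 bp in 24.4% and 44.8%. Of the maxima within 5 kb, 60.6% of H3K27ac maxima (58.6 to 62.6) and 82.3% of H3K9ac maxima (81.1 to 83.4) lay downstream of the start, with medians of 121 and 195 bp downstream. Among peaks with 1 mark, 8.79% of H3K27ac maxima and 80.0% of H3K9ac maxima lay within 5 kb of a start. Starts were known for 17492 of the 21887 coding genes, and peaks on chromosomes without listed starts were left out, so the shares could differ with a fuller list.

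**Figure D3:**
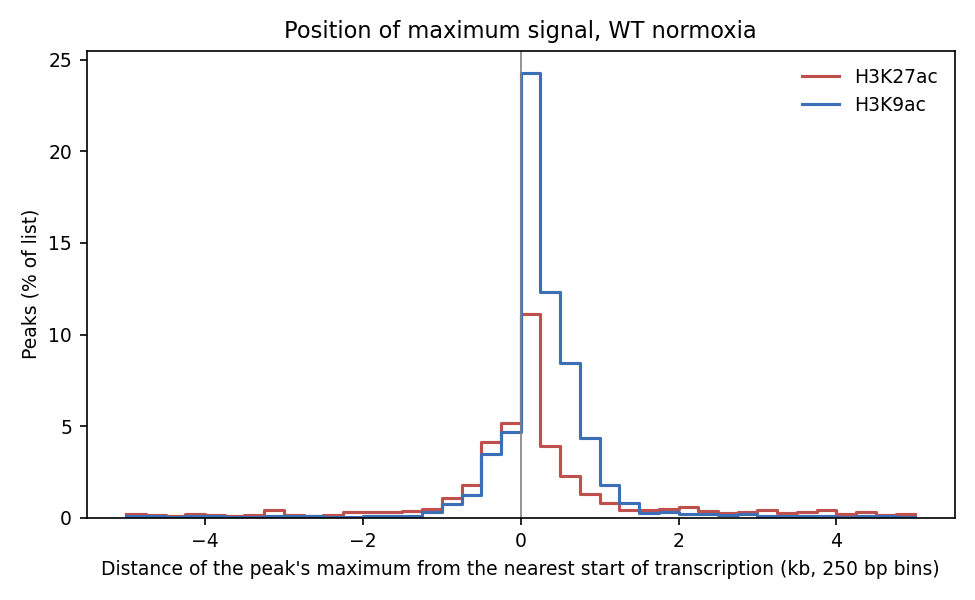
Distance of the point of maximum signal from the nearest listed start of transcription (x axis, kb, negative upstream, bins of 250 bp) against the share of peaks (y axis, % of the list's peaks on the chromosomes searched), H3K27ac in red and H3K9ac in blue, WT normoxia. Of maxima within 5 kb, 60.6% for H3K27ac and 82.3% for H3K9ac lay downstream.

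By gene, H3K27ac at an end came almost always with H3K9ac, and H3K9ac came often alone. Of 21887 coding genes 4120 (18.8%) had H3K27ac and 6486 (29.6%) had H3K9ac within 1 kb of either end. Both marks were present at 3720 genes (17.0%), H3K27ac only at 400 (1.83%), H3K9ac only at 2766 (12.6%) and neither at 15001 (68.5%). Thus 90.3% of genes with H3K27ac (89.4 to 91.2) also had H3K9ac, and 57.4% of genes with H3K9ac (56.2 to 58.6) also had H3K27ac. A missing mark was often missing from the whole gene: 78.3% of the H3K9ac only genes had no H3K27ac peak in the gene or within 10 kb, and 55.0% of the H3K27ac only genes had no H3K9ac peak there. Each mark could be taken from either end, so a gene with both marks need not carry them at the same place. A peak can serve several genes, and 30.7% of H3K27ac peaks and 29.0% of H3K9ac peaks at gene ends were counted for 2 or more.

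A larger share of the class with both marks than of the single-mark classes kept its class in the other pair of libraries. The classes differed in size there. Of all 21887 coding genes 5279 had both marks in HR, 470 had H3K27ac only and 2172 had H3K9ac only. The shares below were not corrected for these sizes. In the WT HR lists 95.4% of the genes with both marks in normoxia again had both. Of the H3K27ac only genes 43.5% were H3K27ac only in HR, 31.5% had both and 21.0% had neither. Of the H3K9ac only genes 42.3% were H3K9ac only in HR and 49.7% had both. The HR list of H3K27ac was longer than the normoxic one (8252 and 5655 peaks), and its part in these shifts was not tested.

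Genes for liver functions and genes for general cell machinery divided differently between the marks. Across 4 lists of liver functions (86 genes for secreted proteins, hepatocyte metabolism, cytochrome P450 and conjugation, and complement and coagulation), 49 had H3K27ac (57.0%, 46.4 to 66.9, against 18.8% of all coding genes) and 45 had H3K9ac (52.3%, 41.9 to 62.6, against 29.6%). Of these, 6 had H3K27ac only (6.98%, 3.24 to 14.4, against 1.83%) and 2 had H3K9ac only (2.33%, 0.640 to 8.09, against 12.6%). The 7 lists of general machinery (168 genes) were housekeeping, cytosolic and mitochondrial ribosomal proteins, respiratory chain, proteasome, splicing and transcription machinery, and DNA repair. Among the 168 genes 72 had H3K27ac (42.9%, 35.6 to 50.4) and 130 had H3K9ac (77.4%, 70.5 to 83.1). H3K27ac only was found at 4 (2.38%, against 1.83% of all coding genes). H3K9ac only was found at 62 (36.9%, 30.0 to 44.4, against 12.6%). The lists were put together in this way after their values were seen. The lists of cell cycle, immediate early, acetyl-CoA supply, acetyltransferase and deacetylase genes are in neither group. Nor are those of cholesterol and fatty acid synthesis and of hepatocyte transcription factors. All of these are given separately. Among the 18 transcription factor genes 1 had H3K27ac only and 1 had H3K9ac only. Counted only at listed starts of transcription, 7 of 65 liver-function genes had H3K27ac only and 1 had H3K9ac only, and of 130 machinery genes 0 had H3K27ac only and 48 had H3K9ac only.

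**Figure D4:**
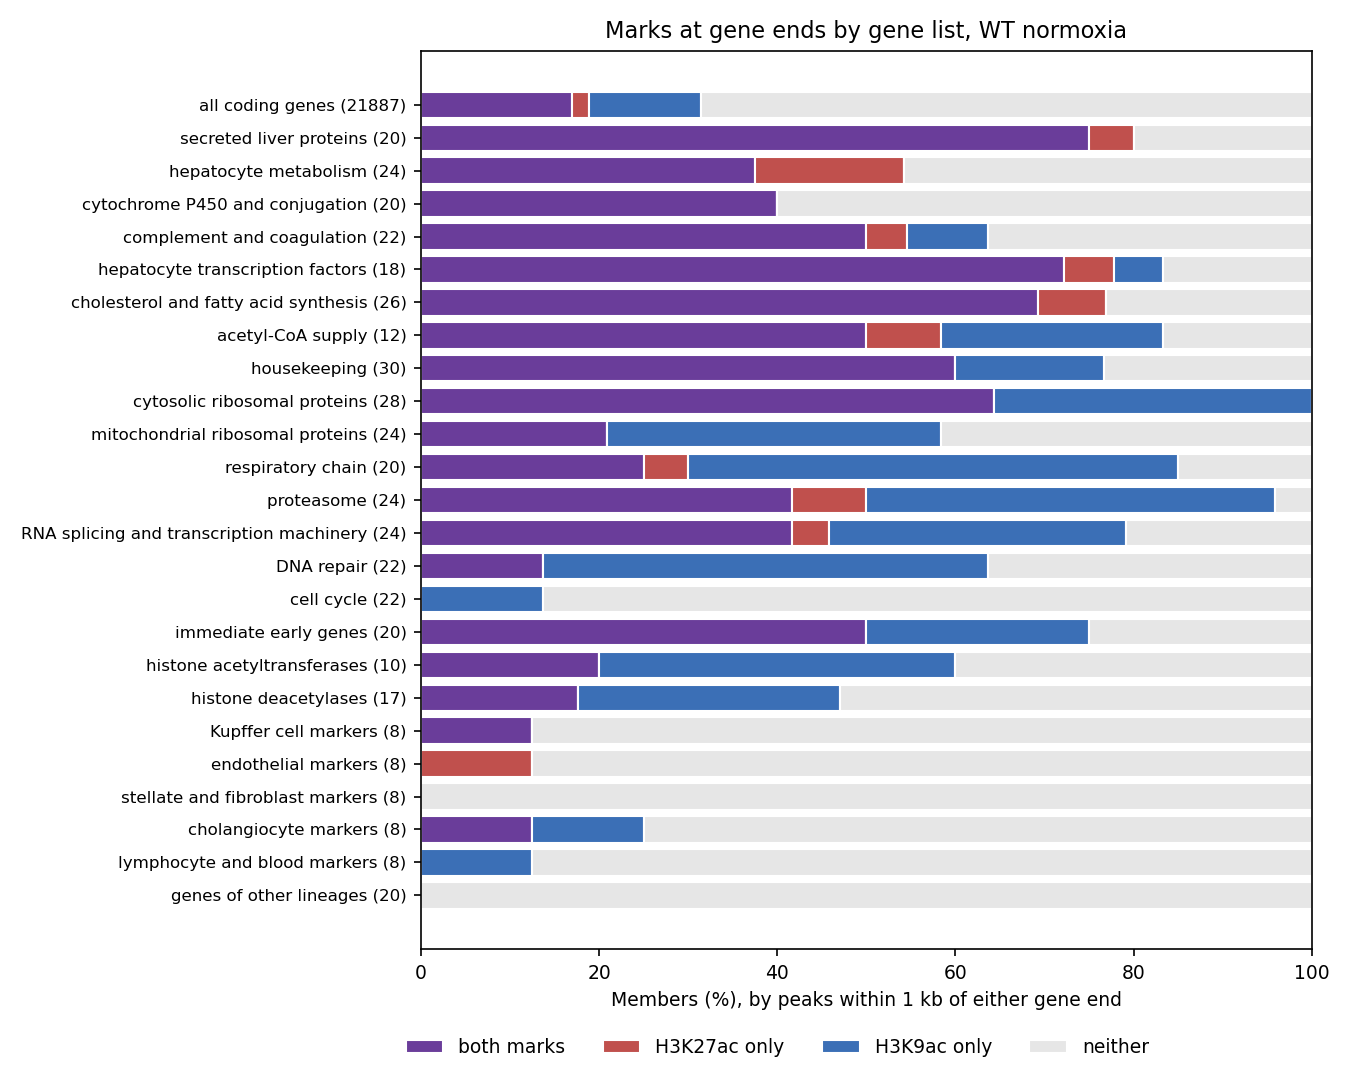
Share of the members of each gene list (x axis, %; number of members in brackets) with both marks, H3K27ac only, H3K9ac only or neither within 1 kb of a gene end, WT normoxia. H3K9ac only was the class of 62 of 168 general machinery genes and of 2 of 86 liver-function genes.

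Genes for secreted liver proteins mostly carried both marks, in peaks of high total signal. Of 20 members 16 had H3K27ac (80.0%, against 18.8% of all coding genes) and 15 had H3K9ac (75%, against 29.6%). Their median percentiles by total signal were 90.7 for H3K27ac and 86.2 for H3K9ac, against 57.9 and 56.8 for all coding genes with the mark. By maximum signal they were 52.2 and 26.4, against 53.8 and 59.5, so the high rank was one of total signal and not of height. Apoa1 and Apoc3, which encode apolipoproteins of plasma lipoproteins, shared their peaks (H3K27ac percentile 98.7, 52530 bp wide; H3K9ac percentile 95.5, 21560 bp wide). The fibrinogen genes Fga, Fgb and Fgg, which encode the precursor of the blood clot's fibrin, lay in or next to 1 H3K27ac peak of 40760 bp at percentile 93.0. H3K9ac was at percentile 65.7 at Fga and 83.7 at Fgb, and no H3K9ac peak reached Fgg. Alb had H3K27ac at percentile 49.2 and H3K9ac at 28.7, and Apoe, an apolipoprotein gene, had H3K27ac at 61.5 and H3K9ac at 95.8. Apoa2, Apoh, Vtn and Serpina1a had neither mark.

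Among 24 genes of hepatocyte metabolism 13 had H3K27ac (54.2%, against 18.8% of all coding genes) and 9 had H3K9ac (37.5%, against 29.6%). The 4 with H3K27ac only included G6pc (percentile 28.3), Fbp1 (61.2) and Tat, which encodes tyrosine aminotransferase (66.4). No member had H3K9ac only. Cps1, the first enzyme of the urea cycle, had H3K27ac at percentile 97.8 and H3K9ac at 97.9. Tdo2, which encodes tryptophan 2,3-dioxygenase, had H3K27ac at 89.5 and H3K9ac at 20.3. G6pc, Fbp1 and Tat were again H3K27ac only in HR. The 11 members with neither mark included Pck1, Arg1, Otc and Ass1.

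Of the 20 cytochrome P450 and conjugation genes 8 had both marks (40% for either mark, against 18.8% and 29.6% of all coding genes) and 12 had neither. All 8 ranked higher for H3K27ac, as did 1065 of the 3720 coding genes with both, with a median difference of percentile, H3K27ac minus H3K9ac, of 12.9. It was largest at Ugt2b5, a glucuronosyltransferase gene (62.8 for H3K27ac and 5.43 for H3K9ac). Cyp3a13 and Por are counted with neither by gene ends and had both marks at another listed start. Of the 22 complement and coagulation genes 12 had H3K27ac (54.5%) and 13 had H3K9ac (59.1%). C8a, a component of the membrane attack complex, had H3K27ac only (percentile 75.9). C3, the central component of complement, had 78.5 for H3K27ac and 98.3 for H3K9ac. F7 and F10, coagulation factor genes, had H3K9ac only, from 1 shared peak at percentile 6.73.

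The hepatocyte transcription factor genes ranked high for both marks by total signal. Of 18 members 14 had H3K27ac and 14 had H3K9ac (77.8% each, against 18.8% and 29.6% of all coding genes), with median percentiles of 84.7 and 93.0. By maximum signal these were 53.4 and 65.3, against 53.8 and 59.5 for all coding genes with the mark. Rxra, the partner of many nuclear receptors, had H3K27ac at 99.1 and H3K9ac at 97.4, in peaks of 82460 and 23700 bp. Nr1h4, the bile acid receptor FXR, had 98.9 and 94.5, and Foxa2, a pioneer factor of liver, had 98.4 and 98.3. Cebpa, a factor of hepatocyte differentiation, had H3K27ac at 52.5 and H3K9ac at 86.5. Onecut1 had H3K9ac only (43.3). Hnf4a is counted as H3K27ac only because of a peak at its far end, while both marks lay at its listed starts. Nr1i3, Nr5a2 and Nr0b2 had neither.

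Of 26 genes of cholesterol and fatty acid synthesis 20 had H3K27ac (76.9%, against 18.8% of all coding genes) and 18 had H3K9ac (69.2%, against 29.6%). Both marks were at 18, H3K27ac only at 2 and H3K9ac only at 0. Fdft1, which encodes squalene synthase, had an H3K27ac peak of 62800 bp at percentile 98.5 and no H3K9ac peak at its ends, although one lay in the gene or within 10 kb. Scap, which encodes the escort protein of the SREBP factors, was the other member with H3K27ac only (80.0). Fasn, which encodes fatty acid synthase, had H3K27ac at percentile 5.75 and H3K9ac at 58.8. Elovl6, which encodes a fatty acid elongase, had 98.2 and 83.6.

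Of the 12 genes that supply acetyl-CoA 7 had H3K27ac (58.3%, against 18.8% of all coding genes) and 9 had H3K9ac (75%, against 29.6%). Acly itself had both, at percentile 74.3 for H3K27ac and 85.6 for H3K9ac. The 6 members with both had a median difference of percentile, H3K27ac minus H3K9ac, of -10.9, close to the -11.0 of all 3720 genes with both marks. Acss2, which makes acetyl-CoA from acetate, had H3K27ac only (72.2) and had both in HR. Dlat and Dld, subunits of the pyruvate dehydrogenase complex, and Crat, carnitine acetyltransferase, had H3K9ac only, and all 3 had both in HR. Of 10 acetyltransferase genes 2 had H3K27ac (20%) and 6 had H3K9ac (60.0%). Ep300 had H3K27ac at percentile 38.2 and H3K9ac at 76.5, Kat2b, which encodes PCAF, had 96.8 and 55.5, Crebbp, which encodes CBP, had H3K9ac only (8.59) and Kat2a, which encodes GCN5, had neither.

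Genes for cytosolic ribosomal proteins ranked far lower for H3K27ac than for H3K9ac by total signal. All 28 had H3K9ac, against 29.6% of all coding genes. H3K27ac was present as well at 18 (64.3%, against 18.8%), and 10 had H3K9ac only (35.7%, against 12.6%). The median percentile was 29.7 for H3K27ac and 74.9 for H3K9ac, and all 18 with both ranked higher for H3K9ac, with a median difference, H3K27ac minus H3K9ac, of -48.1. Over all 3720 genes with both marks the median difference was -11.0, and 1065 ranked higher for H3K27ac. Rpl13, a protein of the large subunit, had H3K27ac at percentile 15.7 and H3K9ac at 76.6, and Rps2, of the small subunit, had 38.3 and 90.9. Rps3 had 45.2 and 48.1. All 28 had both marks in HR, as did 5279 of the 21887 coding genes. The gap was smaller by maximum signal. Ranked so, the median percentiles were 82.3 for H3K27ac and 88.2 for H3K9ac. The median difference was -5.77, against -7.62 over all genes with both marks. By total signal over width a part of the gap remained, with median percentiles of 55.31 for H3K27ac and 71.65 for H3K9ac. The median difference was then -25.6, against -7.84 over all genes with both marks. The peaks were narrow at a median of 6700 bp for H3K27ac and 7235 bp for H3K9ac, against 12110 and 8215 bp at all coding genes with the mark. Many ribosomal protein genes have processed pseudogenes elsewhere in the genome, and the placing of such reads by the authors is unknown here.

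In the median difference of percentile by total signal, the housekeeping list lay nearer to all coding genes than the ribosomal list did. Of 30 members 18 had H3K27ac (60.0%, against 18.8% of all coding genes) and 23 had H3K9ac (76.7%, against 29.6%). All 18 had H3K9ac too. H3K9ac only was found at 5 (16.7%, near the 12.6% of all coding genes), among them Tbp, the TATA-binding protein gene (percentile 71.9). The median percentile was 65.3 for H3K27ac and 81.4 for H3K9ac, and 3 of 18 ranked higher for H3K27ac. The median difference was -15.0 by total signal and -1.18 by maximum signal, against -11.0 and -7.62 for all genes with both marks. Actb, the gene of beta-actin, had H3K27ac at 89.9 and H3K9ac at 94.7, and Gapdh, a glycolytic enzyme gene, had 74.0 and 88.8. Polr2a, the large subunit of RNA polymerase II, had H3K27ac at 4.86 and H3K9ac at 44.8.

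**Figure D5:**
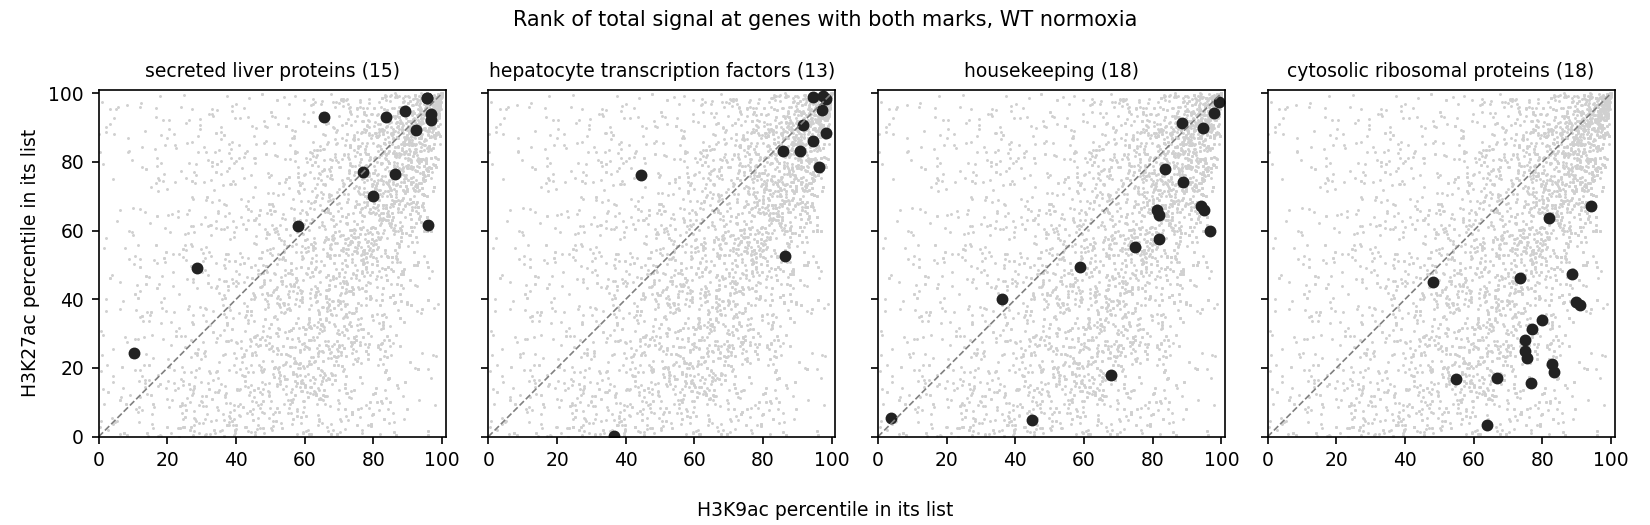
Percentile of total signal within the H3K27ac list (y axis) against that within the H3K9ac list (x axis) for genes with both marks, WT normoxia; grey points are all 3720 such coding genes, black points the members of the named list, and the dashed line marks equal ranks. All 18 cytosolic ribosomal protein genes lie below the line, while 8 of the 15 genes of secreted liver proteins lie above it.

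In the other lists of machinery H3K9ac was also the more frequent mark, as it was over all coding genes (18.8% with H3K27ac and 29.6% with H3K9ac). Of 20 respiratory chain genes 6 had H3K27ac (30.0%) and 16 had H3K9ac (80.0%), with 11 H3K9ac only (55.0%, against 12.6% of all coding genes). Atp5b and Atp5c1, subunits of ATP synthase, had H3K27ac at 93.9 and 98.7 and H3K9ac at 93.3 and 82.5. Of 24 proteasome genes 12 had H3K27ac (50%) and 21 had H3K9ac (87.5%), and 11 had H3K9ac only (45.8%, against 12.6%). Of 24 mitochondrial ribosomal protein genes 5 had H3K27ac (20.8%, near the share of all genes) and 14 had H3K9ac (58.3%). Of 22 DNA repair genes 3 had H3K27ac (13.6%) and 14 had H3K9ac (63.6%). The 3 DNA repair genes with H3K27ac included Brca1 (percentile 89.1) and Xpc (85.3), and all had H3K9ac. Of 24 genes of splicing and transcription machinery 11 had H3K27ac (45.8%) and 18 had H3K9ac (75%), and the 10 with both had a median difference of -28.0, against -11.0 for all genes with both. Of 17 histone deacetylase and corepressor genes 3 had H3K27ac (17.6%, near the share of all genes) and 8 had H3K9ac (47.1%).

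Of the 22 cell cycle genes 0 had H3K27ac, against 18.8% of all coding genes, and 3 had H3K9ac (13.6%, against 29.6%), namely Aurka, a mitotic kinase gene (percentile 60.1), Mcm7, of the replicative helicase (13.6), and Pcna, the sliding clamp of DNA replication (68.5). The immediate early genes, which are induced within minutes of a stimulus, had H3K27ac at 10 of 20 (50%) and H3K9ac at 15 (75%). The 10 with both had a median difference of -16.3 by total signal and -3.27 by maximum signal, against -11.0 and -7.62 for all genes with both. By total signal all 10 ranked higher for H3K9ac, as most genes with both did, among them Jun (68.2 for H3K27ac and 90.8 for H3K9ac) and Myc (81.0 and 92.9). Fos, Fosl1, Egr1, Atf3 and Nr4a1 had H3K9ac only. At Nr4a1 the peak was not at a listed start.

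Markers of other liver cells were nearly free of both marks. There were 40 markers of Kupffer cells, endothelium, stellate cells, cholangiocytes and lymphocytes. Of these, 3 had H3K27ac (7.5%, against 18.8% of all coding genes) and 4 had H3K9ac (10%, against 29.6%). Of 20 genes of other lineages 0 had either. Cd68 had both, from peaks that also lay within 1 kb of Eif4a1, Mpdu1 and Senp3. Lyve1 had H3K27ac only, from a peak that also reached Rnf141, and Cd79a had H3K9ac only, from a peak that also reached Arhgef1. Sox9 had H3K9ac only (15.4), with no other coding gene within 1 kb of the peak. The defining genes Adgre1, Clec4f, Pecam1, Stab2, Lrat, Krt19 and Ptprc had neither.

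Promoter sequence differed between the classes. A promoter here is the 300 bases from 250 before to 50 after a gene's start, and it was called CpG-rich when its CG dinucleotides were at least 0.6 of the number its C and G content predicts. The call held for 76.9% of promoters of genes with both marks (75.3 to 78.3, of 3030), 47.7% of those with H3K27ac only (42.3 to 53.1, of 323), 82.3% of those with H3K9ac only (80.6 to 83.8, of 2236) and 34.8% of those with neither, against 48.4% of all 17492. When classes were taken at the listed starts alone, the shares were 77.6%, 46.3%, 85.8% and 34.8%. In the liver-function lists 5 of 65 promoters were CpG-rich, and in the machinery lists 115 of 130. The promoters of Fbp1 and G6pc had observed over expected values of 0.292 and 0.245, and those of Ndufs3 and Apex1 0.971 and 1.04.

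Short motifs were then counted in the same promoters. CCGGAAG, the core of ETS-factor sites, was sought on both strands and can overlap a CG dinucleotide, since it holds one. It was in 18.9% of promoters of genes with both marks, 11.1% with H3K27ac only (8.16 to 15.0), 26.7% with H3K9ac only (24.9 to 28.6) and 7.38% with neither, against 11.9% of all. Among CpG-rich promoters the shares were 22.4%, 20.1% (14.6 to 27.2), 29.7% (27.7 to 31.9) and 14.2%, against 19.9% of all. TATAAA on the gene's strand between positions -40 and -20 was in 1.19% of promoters with both, 2.17% with H3K27ac only (1.05 to 4.41), 0.671% with H3K9ac only (0.407 to 1.10) and 3.67% with neither, against 2.83% of all. GTTAAT, part of the site of the liver factor HNF1, was in 4.36%, 8.67% (6.07 to 12.2), 3.62% (2.92 to 4.48) and 7.24%, against 6.31% of all. A motif here is a match of letters and was not tested as a bound site.

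At the top of the class with H3K27ac only were genes reached by wide domains. Aldh1a1, which encodes a retinal dehydrogenase, had an H3K27ac peak of 59900 bp at percentile 98.6, and Aqp9, which encodes a glycerol channel of hepatocytes, one of 44530 bp at percentile 96.4. Fdft1, Nicn1, Hps3, Zhx3 and Gm32280 were also among the first 8, with peaks of 46570 to 182960 bp. Of the first 8, 6 had H3K9ac elsewhere in the gene or within 10 kb, Hps3 and Gm32280 being the exceptions. The first 8 with H3K9ac only were Bcl2l1, which encodes an inhibitor of apoptosis (percentile 99.9, 51680 bp), Fignl1, Rnaseh2a, Anapc11, Npb, Paf1, Samd4b and Panx2, and each had H3K27ac in the gene or within 10 kb. The highest-ranked genes of each single-mark class thus lay mostly beside the other mark.

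Among genes with both marks the largest differences of percentile were 88.1 to 96.5 in favor of H3K27ac, at Evi5, Mbnl1, Plscr2, Fam214a, Hmox2 and Cdc37l1. At Hmox2 the peaks of the marks did not overlap and lay at opposite ends of the gene. Evi5 had H3K27ac at percentile 97.4 in a peak of 57590 bp and H3K9ac at 0.837 in one of 5540 bp. At the other extreme were Tbck and Aimp1, which share their peaks (0.389 for H3K27ac and 96.0 for H3K9ac, a difference of -95.6), Slc9a3r1 and Rab37, which also share theirs, Ndufs7 and Ufsp1. Their H3K27ac peaks were 4370 to 8770 bp wide and their H3K9ac peaks 17720 to 34620 bp. At both extremes the higher-ranked mark had the wider peak. Width rose with total signal in both lists, so a choice of genes by total signal favors this and it is no separate result.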

How the data were processed

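CUT&RUN of primary hepatocytes gave 1 peak list per antibody and condition; groups came from the sample titles. The authors deposited for each peak its position, total signal, maximum signal and region of maximum signal. The build is mm10, per the submitters' processing notes. The normalization of the signal, the aligner, the peak caller and its threshold are not given in the sources used here, so the depth and detection limit of each list are unknown.

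Signal was used within a list only, mainly as a percentile. Overlap means at least 1 shared bp. Genes were the 21887 coding genes of RefSeq GRCm38.p6, and a gene took its highest-ranked peak within 1 kb of either end. Starts and promoter sequences were listed for 17492 of them, none on chromosome 18. Python 3.11.15, pandas 2.3.3, numpy 2.4.6 and scipy 1.17.1 were used, and the overlap, rank and placing steps were tested on simulated data. The 24 gene lists (every listed symbol matched a coding gene) and the peaks compared were chosen with earlier results of these data known. The members of the lists of secreted proteins, metabolism, transcription factors and housekeeping, the 8 highest-ranked genes of each single-mark class, the 6 largest differences each way, the 5 largest and 3 widest peaks, and marked members of lists with fewer than 6 of them were named by rule. Other members named as examples, and the pooling of lists into liver functions and machinery, were chosen after their values were seen. The alternatives were other overlaps, windows, gene sets, top peaks, merged peaks, signal columns and the WT HR lists. Some genes that these rules name are not reported here. RNA levels were not used here, because the transcript identifiers were not paired with genes.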

Additional observations from a re-analysis of the deposited data

How the results depend on the processing

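H3K9ac peaks lay at gene ends more often than H3K27ac peaks, and H3K27ac peaks were wider, under every alternative run for these measures. Requiring 50% of both peaks to overlap left 49.48% of H3K27ac and 42.96% of H3K9ac peaks with both marks. With the 5000 peaks of largest total signal the shares were 64.52% and 69.36%, with the 2500 largest 63.12% and 67.52%, and in HR 64.51% and 74.34%, so in these 3 settings the H3K9ac list had the larger share, against the H3K27ac list in the lists as deposited. With peaks under 5 kb apart merged, the shares were 71.01% for H3K27ac and 65.78% for H3K9ac. The median widths were 11160 and 8625 bp in the 5000 largest, 10720 and 7890 bp after merging, and 7410 and 6400 bp in HR. The shares at gene ends were 53.05% and 73.35% without a window, 60.07% and 78.83% with 5 kb, 11.81% and 25.58% by midpoint, 65.22% and 81.87% with all annotated genes, and 31.72% and 60.53% by the region of maximum signal. For H3K9ac they were 77.12% in the 5000 largest and 76.97% in HR. With the 2500 largest peaks 1631 genes had both marks and 1303 had H3K9ac only, and 231 had H3K27ac only at listed starts. By maximum signal the median difference of percentile was -7.616 for all genes, 22.89 for secreted proteins, -1.176 for housekeeping and -5.767 for ribosomal proteins. By total signal over width it was -7.84, 10.84 and -25.62 for all genes, secreted and ribosomal proteins, and in HR -6.937 for all genes and -24.43 for ribosomal proteins. The cause was not tested. Of the other values under alternatives, 31 of main results and 31 of single places or gene lists stayed within their limits, and 25 of places or gene lists moved. The median difference of complement and coagulation genes was 1.93, and -2.33 with a window of 5 kb. No paired analysis was possible because each mark has 1 library. The unknown depth limits every peak called as having 1 mark.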

Other observations

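The highest single point of H3K27ac signal in the list stood apart from all others. It was 1583 on the authors' scale, in the narrowest H3K27ac peak of the list (1180 bp, chr1:195241301-195242480, mm10), outside coding genes and with no H3K9ac peak over it. The next highest was 271.6, in a peak over Sqstm1 and Mrnip with H3K9ac at percentile 97.1. The highest points of the H3K9ac list, 413.1 and 270.2, lay outside coding genes at chr8:19780731-19793410 and chr8:20120671-20129240, and H3K27ac peaks at percentiles 48.0 and 77.6 lay there too. The third, 223.7, lay outside coding genes at chr19:61265221-61267480 with no H3K27ac peak.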
